A study of Rattus norvegicus with 12 samples.

Results

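Histone lysine and arginine methyltransferases, the writers of histone methyl marks, and the demethylases that remove those marks were examined in the striatum of rats that had self-administered methamphetamine (MA). Members were chosen by gene symbol (the Kdm, Kmt, Setd, Setdb, Ehmt, Ezh, Suv39h, Prmt, Nsd, Smyd and Prdm families with Dot1l, Ash1l, Carm1 and Eed), and 50 symbols of the 17337 genes in the count table matched. Of these, 46 had a mean of at least 10 raw counts per library and were kept. Below this limit lay Kdm4d with a mean count of 7.0, Prdm1 with 6.08, Prmt6 with 1.5 and Smyd1 with 1.42, and the members nearest above it were Prdm9 with 19.5 and Prdm11 with 97.9. By role, the 46 members comprised 5 H3K9 writers, 3 core subunits of Polycomb repressive complex PRC2 and 3 H3K36 writers. There were also 1 H3K79 writer, 1 H4K20 writer, 4 other SETD genes, 4 SMYD genes and 4 PRDM genes. The rest were 8 arginine methyltransferase genes, 2 LSD-type demethylases, 10 JmjC-type demethylases and Kmt2e, placed with the H3K4 writers by its KMT2 family name.

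All 12 libraries came from wild-type rats given MA over 16 days of self-administration, 1 library per rat and 4 rats per group. The study's methods describe adult male Sprague-Dawley rats and give their age only at operant training, before self-administration. The labels give no age. The MA12 rats were killed after 12 h and the MA24 rats after 24 h of abstinence, and the third group was labelled non-addicted after the same 16 days, with no abstinence time given. The methods of the study do not define a non-addicted group, so what set these rats apart beyond the label is not known here. When the tissue of these rats was taken is not known here either. Saline rats were not analysed here, and hence no comparison below has a drug-free control. Abstinence length and time of day cannot be told apart in MA24 vs. MA12. All 12 labels carry the same batch date. The numbers of all 4 MA24 rats and of 2 MA12 rats (4N and 7N) end in N, whereas no non-addicted number does, and the meaning of the N is not given. Between MA24 and non-addicted rats, the kind of number and the group therefore cannot be told apart.

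Methyl groups on histone lysines and arginines do not themselves open or close chromatin but are read by other proteins. Methylation of H3K4 marks active promoters and enhancers, H3K36 and H3K79 methylation mark transcribed gene bodies, and H3K9 and H3K27 methylation mark heterochromatin and Polycomb-silenced genes. In the striatum, the H3K9 enzyme G9a (encoded by Ehmt2) and several demethylases are known for their part in lasting transcriptional responses of medium spiny neurons to psychostimulants.

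To show regulatory DNA, RefSeq promoters (assembly GRCr8, 250 bases before to 50 bases after the gene start) of members picked for their part in the results are given. They are those of the H3K36 writer Nsd1, the H4K20 writer Setd8, the H3K9 writer Ehmt2 and the H3K9 demethylase Kdm4b. Nsd1 and Setd8 passed an adjusted p below 0.05 in MA24 vs. MA12 (edgeR quasi-likelihood test), and Ehmt2 and Kdm4b did not. The letters run 5′ to 3′ on the strand of the gene. Capitals mark the E-box CACGTG, the site of clock and other bHLH factors, and the GC box GGGCGG read on either strand, the site of Sp-family factors. The Nsd1 promoter lies on the minus strand at chr17:9429472-9429771, Setd8 (RefSeq symbol Kmt5a) on the minus strand at chr12:37817977-37818276, Ehmt2 on the minus strand at chr20:3940661-3940960, and Kdm4b on the plus strand at chr9:1245653-1245952.
Nsd1: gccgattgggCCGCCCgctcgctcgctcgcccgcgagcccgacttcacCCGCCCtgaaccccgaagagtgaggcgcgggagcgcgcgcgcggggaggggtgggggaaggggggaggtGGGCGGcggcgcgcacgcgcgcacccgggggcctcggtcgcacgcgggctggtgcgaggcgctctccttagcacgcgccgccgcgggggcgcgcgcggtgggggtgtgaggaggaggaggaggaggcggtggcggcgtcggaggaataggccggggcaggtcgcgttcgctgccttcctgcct
Setd8: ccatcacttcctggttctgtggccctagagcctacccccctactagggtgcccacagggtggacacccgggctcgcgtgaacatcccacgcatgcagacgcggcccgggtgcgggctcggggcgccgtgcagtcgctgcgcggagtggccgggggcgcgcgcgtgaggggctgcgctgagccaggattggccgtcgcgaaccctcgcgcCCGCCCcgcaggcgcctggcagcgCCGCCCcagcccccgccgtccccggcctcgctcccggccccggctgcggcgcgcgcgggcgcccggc
Ehmt2: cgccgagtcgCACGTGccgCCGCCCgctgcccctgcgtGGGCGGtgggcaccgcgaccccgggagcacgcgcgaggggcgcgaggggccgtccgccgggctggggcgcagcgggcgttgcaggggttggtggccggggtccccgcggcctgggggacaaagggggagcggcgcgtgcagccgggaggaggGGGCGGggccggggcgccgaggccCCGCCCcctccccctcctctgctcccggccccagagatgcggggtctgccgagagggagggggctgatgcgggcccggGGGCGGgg
Kdm4b: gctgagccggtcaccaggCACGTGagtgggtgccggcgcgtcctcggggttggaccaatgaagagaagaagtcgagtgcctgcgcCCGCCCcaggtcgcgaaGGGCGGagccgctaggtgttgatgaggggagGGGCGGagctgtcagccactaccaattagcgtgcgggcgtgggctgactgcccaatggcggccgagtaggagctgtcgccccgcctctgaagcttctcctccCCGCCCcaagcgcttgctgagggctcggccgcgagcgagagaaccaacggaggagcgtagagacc

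The promoters of Ehmt2 and Kdm4b each held 1 E-box within the 300 bases, and those of Nsd1 and Setd8 held none. Ehmt2 held 5 GC boxes, Kdm4b 4, Nsd1 3 and Setd8 2. RefSeq promoters were matched for 39 of the 46 members, and no entry was matched for Setd7, Ash1l, Kmt2e, Ezh1, Setd5, Prmt3 or Smyd3. An E-box was found in 4 of the 39 (10.3%, namely Ehmt2, Kdm4b, Kdm4c and Smyd4) against 6.59% of all 27457 promoters of the same length. The GC box occurred in 28 (71.8%) against 34.5%, the CRE core TGACG in 12 (30.8%) against 21.8%, and the TATA box TATAAA in 1 (2.56%) against 14.3%, each searched on both strands, and CACGTG can share its last bases with TGACG. The median number of CG pairs was 29 in the members and 7 in all promoters. All promoters here included those of genes absent from the count table, whereas the members were kept for their counts. The contrasts therefore cannot be read as particular to these enzymes. These matches describe the letters of the window and do not show that a factor binds there. The 4 members with an E-box did not share a direction in MA24 vs. MA12. The log2 fold change was 0.304 for Ehmt2 and 0.321 for Kdm4b, but -0.065 for Kdm4c and -0.101 for Smyd4. None of the 4 passed an adjusted p below 0.05 in the edgeR quasi-likelihood test.

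Total counts ran from 17908962 to 23051969 in MA12, from 19690496 to 23850284 in MA24 and from 19043710 to 23718399 in non-addicted rats. Mean raw counts of the members ranged from 19.5 for Prdm9 to 8026 for Ehmt2. Counts were not divided by transcript length, so they give the depth behind each gene and are not compared as expression between genes. Within roles, the most deeply counted members were Ehmt2 among H3K9 writers, Ash1l (4240) among H3K36 writers, Kdm4b (3058) among JmjC demethylases, Setd5 (2442) among other SETD genes, Prmt1 (2382) among arginine methyltransferases, Ezh1 (1966) in PRC2, Kdm1a (1453) among LSD demethylases, Prdm2 (1296) among PRDM genes and Smyd2 (767.9) among SMYD genes. The least counted were Suv39h2 (201.2), Setd2 (1419), Kdm4c, Setd6 (306.5), Prmt10 (364.7), Ezh2 (203.9), Kdm1b (386.6), Prdm9 and Smyd3 in the same order of roles, while Kmt2e (2476), Dot1l (1229) and Setd8 (505.7) were alone in theirs.

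**Figure D1:**
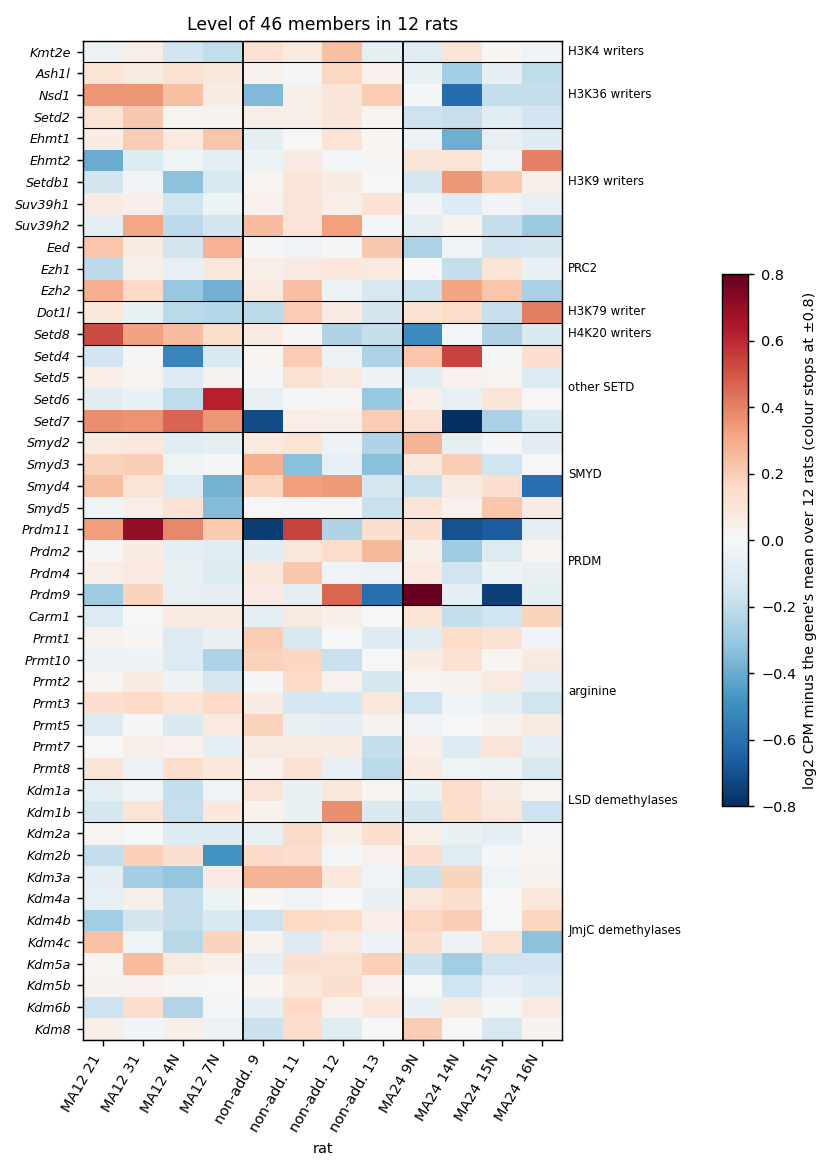
Level of each of the 46 members in each of the 12 rats, as log2 CPM minus the mean of that gene over the 12 rats, with genes grouped by role and rats by group. Most cells are pale, and the strongest colours belong to Prdm9, Prdm11 and Setd7.

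The members varied little among rats. On the log2 CPM scale (counts scaled to library size with TMM factors, prior count 2), the SD pooled within groups had a median of 0.121 over the 46 members, compared with 0.17 over the 12091 genes with a mean count of at least 10. In 30 members the SD was under 0.15, and the lowest was 0.05 for Kdm5b, a demethylase of H3K4. An SD over 0.3 was seen for 3 members, Setd7 (0.345), Prdm11 (0.419) and Prdm9 (0.572). Prdm9 and Prdm11 were also the least counted members. The 12091 genes were not matched to the members for depth, so the lower median cannot be read as a trait of the family. Together the members took 0.276% ± 0.0147 (SD, n = 4) of all counts in MA12, 0.27% ± 0.00152 in MA24 and 0.284% ± 0.0125 in non-addicted rats. None of the 3 differences in this share passed an exact permutation test (two-sided, p = 0.4 between the abstinence groups, and 0.429 and 0.0857 for non-addicted rats against MA12 and MA24), for which 0.0286 is the smallest p that 4 against 4 rats allow.

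To find which histone methylation enzymes differed between the later and the earlier abstinence time, MA24 was compared with MA12. The transcripts of Nsd1, Setd7 and Setd8, all methyltransferases, were lower in MA24 than in MA12 at an adjusted p below 0.05 (quasi-likelihood test of edgeR, Benjamini-Hochberg adjusted over 10754 genes), by 1.40-fold, 1.55-fold and 1.44-fold, respectively. No member was higher at that limit. Only Setd7 also passed the fold change (FC) limit of 1.5, that is 1 of 32 members tested, whereas 2.45% of all genes tested passed both limits. At any FC, 3 of 32 members passed, all of them lower, against 5.16% of all genes in either direction and 3.32% of all genes that were lower. The other 14 members had been removed with the 15% of genes of lowest variance, before testing. These were Kdm1a, Kdm2a, Kdm4a, Kdm5b, Kdm8, Kmt2e, Prdm4, Prmt1, Prmt2, Prmt5, Prmt7, Prmt8, Setd5 and Suv39h1, and none of them passed when that filter was left out.

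The H3K36 writers comprised Nsd1 and Ash1l, which add the lower methylation states, and Setd2, which adds the trimethyl mark during transcription. Nsd1 had log2 CPM of 6.87, 6.87, 6.75 and 6.58 in MA12 rats 21, 31, 4N and 7N, of 6.5, 5.90, 6.32 and 6.33 in MA24 rats 9N, 14N, 15N and 16N, and of 6.16, 6.56, 6.61 and 6.72 in non-addicted rats 9, 11, 12 and 13. Every MA24 rat lay below every MA12 rat, the lowest being 14N, and the non-addicted rats overlapped both groups. Nsd1 thus had a log2 FC of -0.49 between the groups (SE 0.118, edgeR quasi-likelihood, adjusted p = 0.0235). Setd2 had 6.18, 6.29, 6.10 and 6.10 in MA12, against 5.91, 5.89, 5.98 and 5.92 in MA24. Ash1l had 7.76, 7.72, 7.77 and 7.74 in MA12, against 7.59, 7.38, 7.58 and 7.45 in MA24. Thus for all 3 H3K36 writers the MA24 rats lay below the MA12 rats with no overlap, which was the case in one direction or the other for 15.6% of all genes tested. Only Nsd1 passed the test over all genes, and Ash1l (log2 FC -0.25, SE 0.092, adjusted p = 0.115) and Setd2 (log2 FC -0.24, SE 0.093, adjusted p = 0.125) did not.

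Setd8, named Kmt5a in current nomenclature, is the enzyme that adds a single methyl group to H4K20. It had log2 CPM of 5.09, 4.89, 4.81 and 4.70 in MA12, 4.06, 4.55, 4.33 and 4.45 in MA24, and 4.63, 4.57, 4.33 and 4.38 in non-addicted rats. All MA12 rats lay above all rats of the other groups. For Setd8 the log2 FC was -0.52 between MA24 and MA12 (SE 0.127, adjusted p = 0.0239). Setd7 methylates lysines of H3 and of many non-histone proteins, and had 5.17, 5.16, 5.26 and 5.15 in MA12, 4.92, 3.92, 4.54 and 4.67 in MA24, and 4.08, 4.86, 4.85 and 5.0 in non-addicted rats. The MA12 rats were close together and above all other rats, while MA24 rat 14N and non-addicted rat 9 were the lowest of all, at 3.92 and 4.08. For Setd7 it was -0.63 (SE 0.152, adjusted p = 0.0235). The same rats 14N and 9 were the 2 lowest of the 12 for Nsd1 and Prdm11 as well, and 14N had the lowest value of all 12 rats in 10 of 46 members, as had MA12 rat 4N. Without rat 14N, Nsd1 no longer passed (log2 FC -0.39, adjusted p = 0.0584), and Setd8 in place of Setd7 passed both limits.

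Each of these 3 genes missed the adjusted p limit without 1 or more single rats, with log2 FC that stayed negative. Without MA12 rat 21, Nsd1 (log2 FC -0.45, adjusted p = 0.0671) and Setd8 (-0.44, 0.0999) did not pass. Nsd1 also missed it without MA12 rat 31 (-0.46, 0.0556), and Setd7 (-0.62, 0.0536) and Setd8 (-0.51, 0.0584) without MA24 rat 15N. When the kind of rat number was added to the model, the log2 FC was -0.39 for Nsd1 (adjusted p = 0.186), -0.66 for Setd7 (0.108) and -0.41 for Setd8 (0.21), and no member passed, while the genes that passed over the whole table went from 555 to 49. Between the 2 MA12 and 4 MA24 rats numbered with N alone, the values were -0.38, -0.64 and -0.39 (adjusted p = 0.203, 0.0661 and 0.257).

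**Figure D2:**
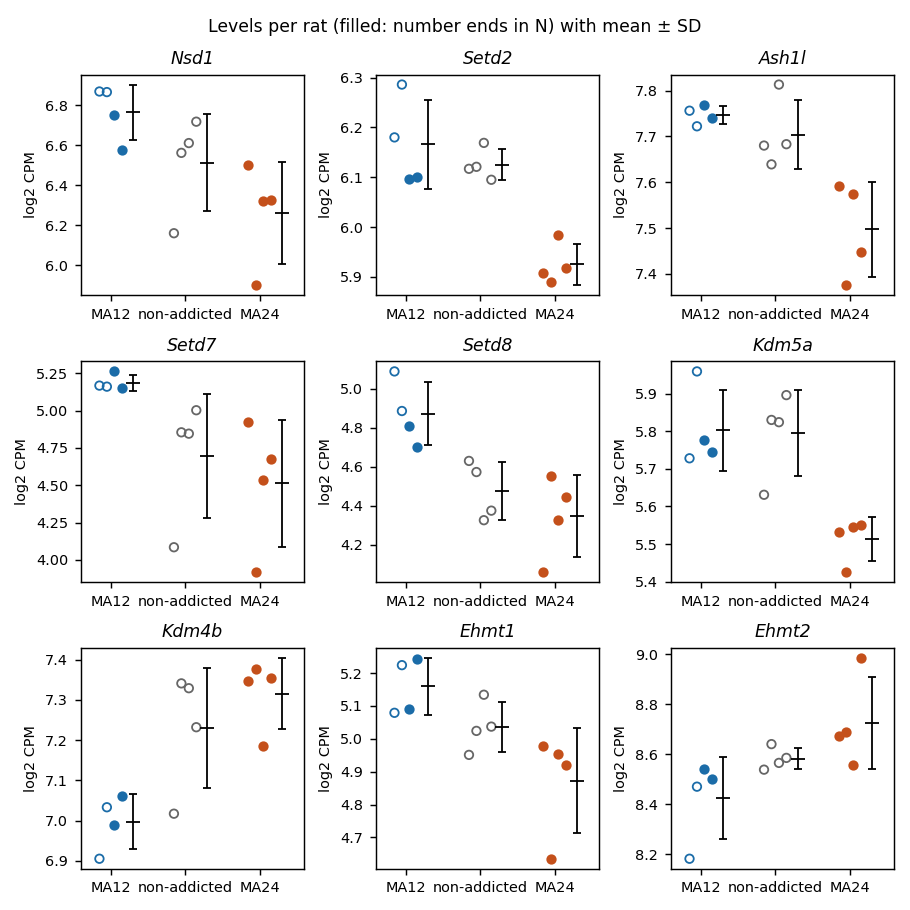
Log2 CPM of 9 members in each rat, in MA12, non-addicted and MA24 groups (filled points, rats whose number ends in N), with the group mean and SD (n = 4) as a bar beside the points and an axis of its own range in each panel. Setd7 and Setd8 separate the MA12 rats from all others, and Kdm5a, Setd2 and Ash1l separate the MA24 rats from all others.

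Among the H3K9 writers, the genes of the G9a and GLP heterodimer had log2 FC of opposite sign. Ehmt2 had log2 CPM of 8.18, 8.47, 8.54 and 8.5 in MA12 and 8.67, 8.69, 8.55 and 8.98 in MA24, whereas Ehmt1, which encodes GLP, had 5.08, 5.22, 5.09 and 5.24 in MA12 and 4.98, 4.63, 4.96 and 4.92 in MA24. Neither gene overlapped between the groups, but the gap for Ehmt2 was narrow and neither passed the test over all genes (log2 FC 0.30, SE 0.111, adjusted p = 0.107 for Ehmt2, and -0.28, SE 0.109, adjusted p = 0.125 for Ehmt1). Setdb1, which trimethylates H3K9 at retroelements together with Trim28, had a log2 FC of 0.28 (SE 0.113, adjusted p = 0.139) with overlapping groups. Suv39h1 and Suv39h2, the enzymes of pericentric heterochromatin, had log2 FC of -0.03 and -0.11, with 95% intervals of -0.25 to 0.18 and -0.45 to 0.23.

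Because both genes of a pair are measured in the same library, the difference of their levels within a rat does not depend on the scaling between libraries. The pairs were chosen after the values had been seen, so their p-values are not independent evidence. Both genes of the pairs Ehmt2 and Ehmt1, and Kdm4b and Kdm5a, already separated MA24 from MA12, in opposite directions. Their difference therefore had to separate MA24 from MA12, and the permutation p for that comparison was fixed in advance. Ehmt2 minus Ehmt1 was 3.27 ± 0.14 (SD, n = 4) on the log2 CPM scale in MA12, 3.85 ± 0.24 in MA24 and 3.55 ± 0.08 in non-addicted rats. All MA24 rats exceeded all MA12 rats (difference 0.59, exact permutation test, two-sided, p = 0.0286), and the non-addicted rats overlapped both groups (p = 0.0571 against each). Kdm4b minus Kdm5a was 1.2 ± 0.10 in MA12, 1.80 ± 0.13 in MA24 and 1.43 ± 0.09 in non-addicted rats, and the 3 groups did not overlap (exact permutation p = 0.0286 for each pair of groups). Ezh1 minus Ezh2, the 2 catalytic subunits of PRC2, was 3.31 ± 0.43, 3.22 ± 0.33 and 3.32 ± 0.17 in MA12, MA24 and non-addicted rats, with overlapping groups (exact permutation p = 0.714 between the abstinence groups, and 1 and 0.686 for non-addicted rats against MA12 and MA24).

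**Figure D3:**
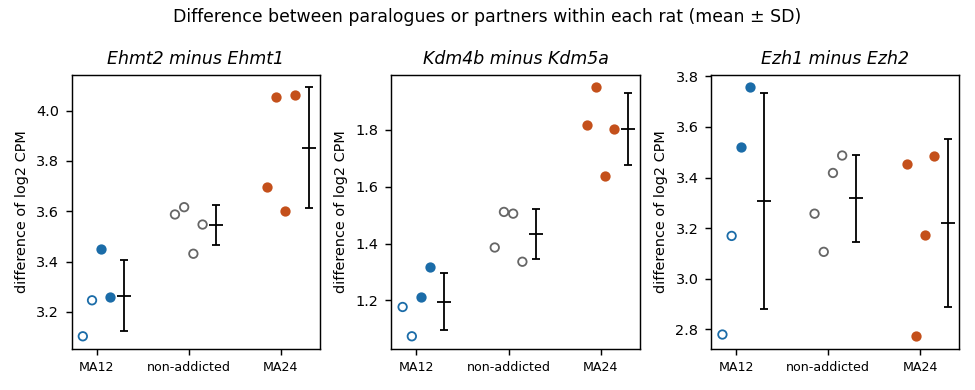
Difference in log2 CPM within each rat between Ehmt2 and Ehmt1, Kdm4b and Kdm5a, and Ezh1 and Ezh2, by group (points, rats, filled where the number ends in N, with mean and SD beside them, n = 4). Kdm4b minus Kdm5a separates the 3 groups, with MA12 lowest and MA24 highest, while Ezh1 minus Ezh2 overlaps in all of them.

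The JmjC demethylases were divided in direction. Kdm4b, which removes methyl groups from H3K9, had log2 CPM of 6.91, 7.03, 6.99 and 7.06 in MA12, 7.35, 7.38, 7.18 and 7.35 in MA24, and 7.02, 7.34, 7.33 and 7.23 in non-addicted rats. MA24 lay above MA12 with no overlap, and the log2 FC of 0.32 (SE 0.093) stood just beyond the limit (adjusted p = 0.0509). Kdm4b passed it in 7 of 17 alternative settings. Kdm5a, which removes methyl groups from H3K4, had 5.73, 5.96, 5.78 and 5.74 in MA12, 5.53, 5.43, 5.55 and 5.55 in MA24, and 5.63, 5.83, 5.82 and 5.90 in non-addicted rats. The MA24 rats were below all rats of the other groups, with a log2 FC of -0.29 against MA12 (SE 0.097, adjusted p = 0.0829). Its paralogue Kdm5b had a log2 FC of -0.10 (SE 0.066), and the 4 MA12 rats lay between 6.81 and 6.83, just above the highest MA24 rat at 6.80. Kdm3a, another H3K9 demethylase, had 0.14 (SE 0.112) and the H3K27 demethylase Kdm6b 0.08 (SE 0.106). Of all 10 JmjC genes, 3 had a negative log2 FC when the variance filter was left out, namely Kdm5a, Kdm5b and Kdm4c. The LSD-type enzymes Kdm1a and Kdm1b had log2 FC of 0.13 and 0.02.

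PRC2 transcripts did not pass the test. The log2 FC was 0.00 for Ezh1 (95% interval -0.20 to 0.20), 0.08 for Ezh2 (-0.30 to 0.46) and -0.25 for Eed, the subunit that binds the H3K27 trimethyl mark (-0.49 to -0.01, adjusted p = 0.217). The interval of Eed leaves out 0 only because it assumes a normal error, since the edgeR quasi-likelihood test gave an unadjusted p of 0.0522. Dot1l, the H3K79 writer, had 0.24 (SE 0.119, adjusted p = 0.232). Of the arginine methyltransferases, Prmt3, a cytosolic enzyme that acts on a ribosomal protein, had 4.92, 4.94, 4.90 and 4.95 in MA12 and 4.63, 4.76, 4.71 and 4.63 in MA24, with no overlap (log2 FC -0.24, SE 0.102, adjusted p = 0.156). Prmt10, listed by RefSeq as Prmt9, also did not overlap, in the other direction (log2 FC 0.18, SE 0.12, adjusted p = 0.371). The main enzymes of asymmetric and symmetric dimethylation, Prmt1 and Prmt5, had log2 FC of 0.07 and 0.06, and Carm1, Prmt2, Prmt7 and the brain-enriched Prmt8 lay between -0.10 and 0.03.

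Of the other SETD genes, Setd4 had 3.89, 4.04, 3.52 and 3.92 in MA12 and 4.27, 4.59, 4.03 and 4.18 in MA24, with overlap of a single pair of rats (log2 FC 0.43, SE 0.149, adjusted p = 0.0929). Among PRDM genes, Prdm11 had 2.50, 2.86, 2.54 and 2.37 in MA12 and 2.30, 1.46, 1.5 and 2.09 in MA24, with no overlap (log2 FC -0.71, SE 0.243, adjusted p = 0.0886). Prdm9, the H3K4 writer of meiotic recombination sites, was counted 9 to 52 times in MA24 and 14 to 23 times in MA12. Its log2 FC of 0.42 (SE 0.515) rested on MA24 rat 9N and was -0.24 without that rat. The 4 SMYD genes had log2 FC between -0.10 (Smyd4) and 0.15 (Smyd5).

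**Figure D4:**
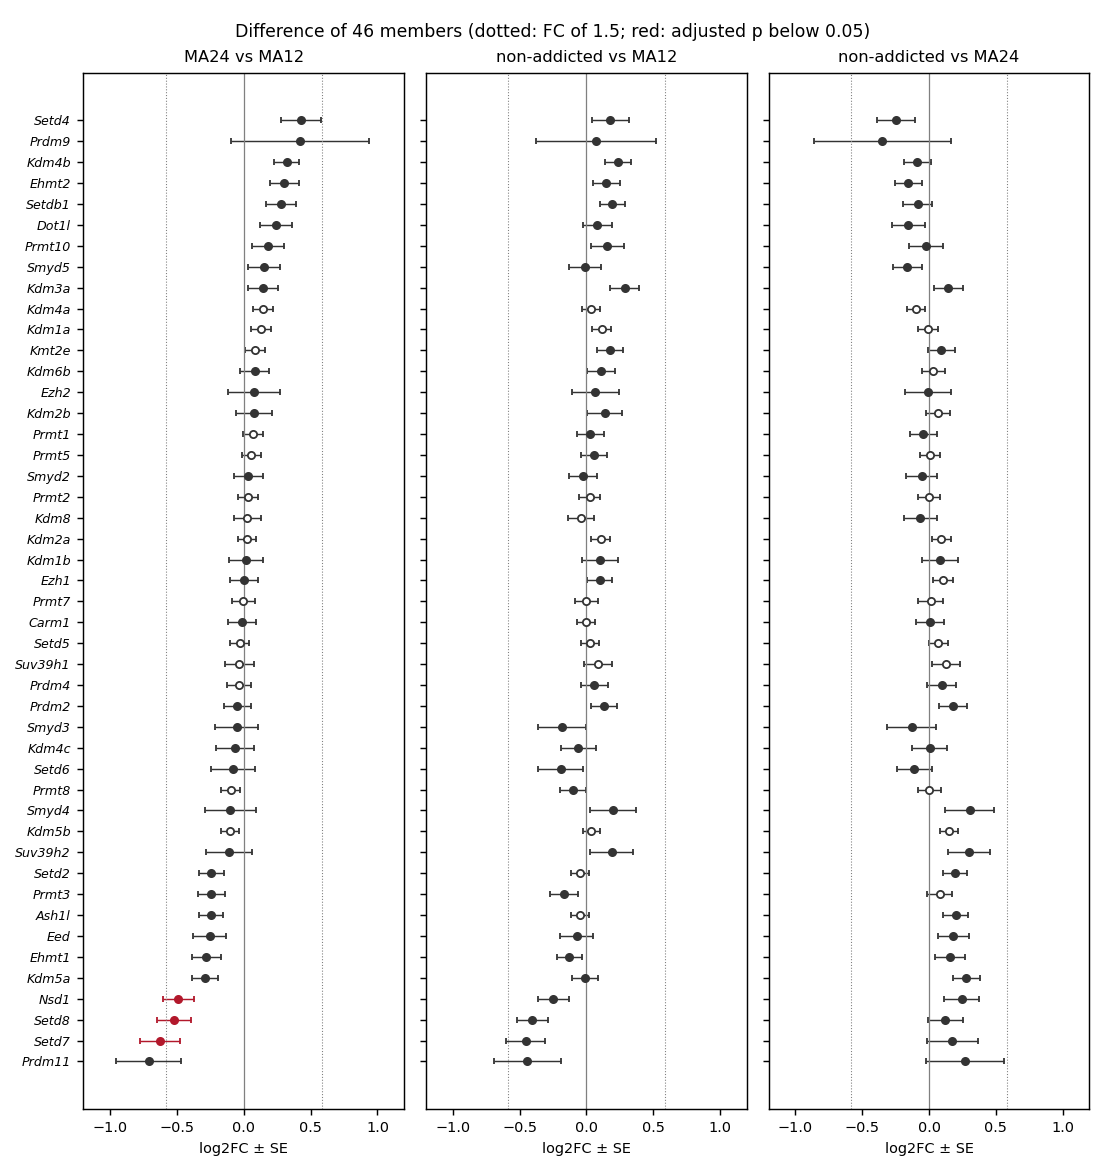
Log2 FC with its SE (edgeR) for each of the 46 members in the 3 comparisons, ordered by the first comparison (open points, members removed by the variance filter, fitted without it, and red, adjusted p below 0.05). Red points are confined to Nsd1, Setd7 and Setd8 in the first panel.

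In MA24 vs. MA12, 13 of all 46 members (28.3%) did not overlap between the groups when the variance filter was left out, compared with 14.4% of the 12652 genes above the count limit. Of the 32 members that passed the filter, 12 did not overlap against 15.6% of all genes tested, 9 of them lower (Nsd1, Setd7, Setd8, Kdm5a, Prdm11, Ash1l, Setd2, Ehmt1 and Prmt3) and 3 higher (Kdm4b, Ehmt2 and Prmt10) in MA24. That filter keeps the genes that vary most, so the first count is the one to set beside the genome-wide share. Those genes were not matched to the members for depth, so the higher share cannot be read as a trait of the family. The same limit holds for such shares in the comparisons with non-addicted rats. The direction was balanced: 23 of 46 members had a negative log2 FC without the filter, with a median of -0.001 (-0.005 over all genes), and 17 of 32 with it, with a median of -0.031 (-0.016 over all genes tested). Unadjusted p-values were below 0.05 in 13 of 32 members and in 23.6% of all genes tested.

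The partners of these enzymes were counted from lists of complexes, beside 5.16% of all genes with an adjusted p below 0.05 at any FC. The lists were chosen with earlier results of these data known, so these counts are not independent evidence. Among 6 tested COMPASS partners, Pagr1, a subunit of the complexes of KMT2C and KMT2D, was higher in MA24 (log2 FC 0.63, SE 0.123, adjusted p = 0.00904) and Hcfc1 lower (-0.55, SE 0.143, adjusted p = 0.0308). Pagr1 ranged from 4.60 to 4.84 in MA12 and from 5.10 to 5.67 in MA24, with no overlap. Of 7 PRC2 partners, Phf1, a Polycomb-like subunit, was higher (0.37, SE 0.094, adjusted p = 0.0307), and of 13 PRC1 genes, Phc3 was lower (-0.68, SE 0.167, adjusted p = 0.026). None of 5 H3K9 partners and readers, 7 LSD1 partners, 3 arginine partners or 8 enzymes of the same families outside the symbol rule passed at an adjusted p below 0.05. With the kind of rat number in the model, Pagr1 still passed (log2 FC 0.73, adjusted p = 0.0429), and Hcfc1 (-0.46, 0.21), Phf1 (0.32, 0.214) and Phc3 (-0.44, 0.269) did not. Without MA12 rat 21, Pagr1 also passed in the edgeR quasi-likelihood test (adjusted p = 0.0183). Hcfc1 (0.068), Phf1 (0.0946) and Phc3 (0.102) then missed the limit, as they did without some other single rats. Hcfc1 also missed it when the variance filter was left out (0.0537). In that fit 1 of 12 COMPASS partners passed, against 528 of 12652 genes. With at least 10 counts in every library Hcfc1 had 0.051. In the fit over 3 groups, Hcfc1 (0.0506) and Phc3 (0.053) missed the limit too. No gene of these 7 lists passed in the comparisons with the non-addicted rats.

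To see where rats labelled non-addicted stood, they were compared with MA12. No member passed either limit in the edgeR quasi-likelihood test, with 34 members tested, and 5 had an unadjusted p below 0.05. Over all 10758 genes tested, 0.251% passed both limits, 0.270% passed the adjusted p alone and 12.3% had an unadjusted p below 0.05. DESeq2 and edgeR's likelihood ratio test also called no member. The 12 members removed by the variance filter were Ash1l, Carm1, Kdm1a, Kdm2a, Kdm4a, Kdm5b, Kdm8, Prmt2, Prmt7, Setd2, Setd5 and Suv39h1. Groups did not overlap for 4 of 34 members, against 7.10% of all genes tested, and without the variance filter for the same number of all 46 (8.7%), against 6.65%. The 4 members were Setd8 (log2 FC -0.40, SE 0.117, adjusted p = 0.144), Setd7 (-0.45, SE 0.145, adjusted p = 0.18), Prmt3 (-0.17, SE 0.104) and, in the other direction, Setdb1 (0.19, SE 0.093). Setdb1 had 6.01, 6.10, 6.06 and 6.0 in non-addicted rats and 5.85, 5.97, 5.67 and 5.87 in MA12.

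Of the members whose groups overlapped, those with the smallest p were Kdm3a (log2 FC 0.29, SE 0.109, adjusted p = 0.278), Kdm4b (0.23, SE 0.097, adjusted p = 0.33) and Nsd1 (-0.25, SE 0.115, adjusted p = 0.391). Kdm3a had 5.84, 5.84, 5.66 and 5.54 in non-addicted rats and 5.50, 5.30, 5.27 and 5.64 in MA12. Kmt2e, a PHD and SET domain protein that binds the H3K4 trimethyl mark, had 0.18 and Prdm11 -0.44. The remaining members named by smallest p (Ehmt2, Prdm2, Ehmt1, Setd4, Prmt10, Suv39h2, Smyd4, Setd6, Kdm6b, Prmt8 and Smyd3) had log2 FC between -0.19 and 0.20. Over the 34 members, 14 were lower in non-addicted rats, and the median log2 FC was 0.063 (-0.012 over all genes tested).

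The same rats were compared with MA24. Again no member passed either limit in the edgeR quasi-likelihood test, with 32 tested, nor with DESeq2 or the likelihood ratio test, and 3 had an unadjusted p below 0.05. Of the 10744 genes tested, 0.456% passed both limits, 0.549% the adjusted p alone and 17.5% the unadjusted p. The 14 members removed by the variance filter were Ezh1, Kdm1a, Kdm2a, Kdm2b, Kdm4a, Kdm5b, Kdm6b, Prmt2, Prmt3, Prmt5, Prmt7, Prmt8, Setd5 and Suv39h1. Groups did not overlap for 5 of 32 members, against 10% of all genes tested, and without the variance filter for 7 of 46 (15.2%), against 9.39%, with Kdm5b and Suv39h1 added. Kdm5a (log2 FC 0.28, SE 0.098, adjusted p = 0.166), Setd2 (0.20, SE 0.091, adjusted p = 0.275), Ash1l (0.20, SE 0.094, adjusted p = 0.276) and Eed (0.18, SE 0.117) were higher in every non-addicted rat than in any MA24 rat, and Smyd5 (-0.16, SE 0.109) was lower. Setd2 had 6.12, 6.12, 6.17 and 6.09 in non-addicted rats, and Ash1l had 7.68, 7.64, 7.81 and 7.68.

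Of the members whose groups overlapped, Suv39h2 (0.30), Nsd1 (0.24), Setd4 (-0.25), Smyd4 (0.30), Prdm2 (0.18) and Ehmt2 (-0.16) had the smallest p, all with adjusted p of 0.322 or more. Ehmt1, Kdm3a, Dot1l, Kmt2e, Prdm11, Setd8, Setd7, Kdm4b and Prdm4 had log2 FC between -0.16 and 0.27. For Nsd1, Setd7 and Setd8, the members lower in MA24 than in MA12, the 95% intervals of this difference were -0.01 to 0.50, -0.20 to 0.55 and -0.14 to 0.38. Over the 32 members, 14 were lower in non-addicted rats, with a median log2 FC of 0.046 (0.003 over all genes tested). The mean of the non-addicted rats lay between the MA12 and MA24 means for 23 of 46 members, compared with 44.1% of the 12091 genes with a mean count of at least 10. The comparisons share groups of rats, so their log2 FC values are not independent of each other.

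RNA came from whole striatal tissue, and fewer cells of a type and less RNA per cell cannot be told apart. All 12 markers of striatal projection neurons were present. Their summed level was 14700 to 18700 CPM in MA12, 17200 to 19000 in MA24 and 14500 to 17600 in non-addicted rats. Of the 11 tested in MA24 vs. MA12, 7 had a negative and 4 a positive log2 FC. In MA24 vs. MA12, where the methyltransferases differed, Abcc9 and Rgs5 of 8 vascular markers, Prkcd of 3 tested thalamic markers, Slc1a2 of 6 astrocyte markers and Pdyn of 11 tested striatal markers were also lower, and no marker passed as higher. The 3 tested markers of cortical excitatory neurons had a median log2 FC of 0.19 in this comparison, and none of them passed in any comparison. The summed vascular level was 477 to 637 CPM in MA12, 544 to 585 in MA24 and 336 to 479 in non-addicted rats, the thalamic level 33.9 to 62.7, 28.9 to 33.3 and 27.6 to 73.4, and the oligodendrocyte level 12100 to 21700, 18100 to 21200 and 11700 to 17300. Astrocyte markers summed to 3130 to 4270, 3620 to 4040 and 3260 to 4050 CPM in the same order. Against MA12, Abcc9, Kdr, Pdgfrb and Pdyn were lower in non-addicted rats, and against MA24 Cldn5, Kdr and Mbp were lower and Foxj1 higher. The choroid plexus gene Ttr was at 0 in 6 libraries, and the ependymal and choroid level was 43.2 to 84.4, 48.7 to 64.6 and 56.7 to 109 CPM. No marker of oligodendrocyte precursors (2 genes), microglia (6) or blood immune cells (3) passed in any comparison. The part of these markers in the differences of the enzymes was not tested.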

How the data were processed

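Total RNA from rat striatum was sequenced after poly-A selection (TruSeq v2, paired-end). Per the labels and the methods of the study, the authors used Cutadapt 1.18 for trimming, STAR 2.7.0e for alignment to rn6, and featureCounts for counts per gene. HTSeq 0.12.4 is also listed in the submitters' processing notes with no role. Strand setting and annotation are not given in the sources used here, so reads of overlapping or near-identical genes cannot be told apart. The deposited table holds raw counts of 17337 genes in 12 libraries, all of which were mapped to rats.

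Each comparison used its own 8 libraries. Genes needed a mean count above 4, and the 15% that varied least in log2 CPM were then dropped. TMM factors and edgeR 4.0.16 (R 4.3.3; glmQLFit, glmQLFTest) were applied, with Benjamini-Hochberg adjustment over all genes tested. A gene was called at an adjusted p below 0.05 and FC of at least 1.5. Members removed by the variance filter were given values from a fit without it. Levels were computed as log2 CPM (prior count 2) and scaled over the 12 libraries. The SE was taken from the log2 FC and its F statistic, and 95% intervals assume a normal error. With 4 rats per group, such intervals are somewhat too narrow. Single values were compared by an exact permutation test over the 70 ways to divide 8 rats. The edgeR test moderates the spread of each gene with that of all genes, and p-values cover variation among these rats only. The fitting code was tested on simulated data.

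Alternatives were DESeq2 1.42.0, the likelihood ratio test, RLE factors, other filters, a fit over 3 groups, the kind of rat number, and leaving out each rat. Reading the pathway genes under them was added after seeing the data. Members and lists were chosen with earlier results of these data known. Named genes were all members past a limit, the 20 members of smallest p in each comparison, the most and least counted in each role, those next to the count limit, members removed by filters, and called genes of the lists. A list for RNA quality (4 genes) had 0 symbols in the table. The summed level of one marker list is not reported here. Hcfc1, Phf1 and the paired differences were named after their values were seen.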

Additional observations from a re-analysis of the deposited data

Results flagged for a closer look

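In 7 of 138 sets of 4 rats (46 members in 3 groups), the rat at one end stood apart from the others by more than 0.829 of the range of its group, and about 6.9 such sets are given by chance at 1 in 20. In the non-addicted group, rat 13 stood apart for Eed (0.94 of the range), Prmt7 (0.949) and Smyd5 (0.899). In MA24, rat 14N stood apart for Ehmt1 (0.833) and Kdm5a (0.852), and rat 15N for Kdm4b (0.846). In MA12, rat 4N stood apart for Setd7 (0.85), where the whole group spanned only 5.15 to 5.26 log2 CPM. Rat 13 was the highest of its group for Eed and the lowest for Smyd5, and rat 14N was the lowest of its group for both of its genes.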

How the results depend on the processing

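DESeq2, the likelihood ratio test, RLE factors, no filter, a minimum of 10 counts in every library, no variance filter and a fit over 3 groups each called Setd7 in MA24 vs. MA12 and raised the members with an adjusted p below 0.05 from 3 to 4 by adding Kdm4b (lowest adjusted p = 0.00738 with DESeq2). With a covariate for numbers ending in N, and among rats numbered with N alone, 0 members were called and 0 passed the adjusted p, and the median log2 FC of the members was 0.039 and 0.095 in place of -0.031. Leaving out 1 rat at a time gave 0 to 2 members called, 1 to 4 with an adjusted p below 0.05 and a median of -0.082 to 0.028 in MA24 vs. MA12. Prdm11 joined the calls without MA24 rat 9N (log2 FC -0.89, adjusted p = 0.0445), and Prdm9 ranged from -0.24 without that rat to 0.67 without 15N.

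In non-addicted vs. MA12, the median was -0.011 with that covariate and -0.001 among rats numbered without N, against 0.063. Members without overlap numbered 8 among rats numbered without N, and 4 to 9 when 1 rat was left out (9 without non-addicted rat 9, 7 without MA12 rat 7N), against 4, and the median then ran from 0.039 to 0.122. Setd6 turned to 0.000 among rats numbered without N and to 0.048 without MA12 rat 7N (-0.27 without 4N). In non-addicted vs. MA24, the median ran from -0.006 to 0.075 and the members without overlap from 4 to 9 (9 without non-addicted rat 9). No member passed in either comparison under any alternative that was run. The cause of these shifts was not tested.

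Of the single-gene values under the alternatives, 313 in MA24 vs. MA12, 329 in non-addicted vs. MA12 and 289 in non-addicted vs. MA24 kept their direction and side of the limit. In MA24 vs. MA12, 12 values fell short of the limit, 8 newly passed it and 1 changed sign. In non-addicted vs. MA12, 2 values changed sign. The trend with gene length was not run, since reference lengths were of another assembly. Groups shared no rat numbers. No paired analysis was possible because the rats of different groups carry different numbers. Depth limits Prdm9, with 9 to 52 counts per library, more than the other members.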
